A study of Arabidopsis thaliana with 4 samples.

Results

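Some mRNA 3′ ends in Arabidopsis thaliana seedlings carried, after the poly(A) tract, a short extension that held both U and A. These extensions are described here for 4 TAIL-seq libraries. TAIL-seq ligates an adapter to the 3′ ends of total RNA and reads the A tract together with whatever was added after it. Extensions were selected on their own letters: at least 1 T (U in the RNA), at least 1 A and no G or C. The rule took 2939 of 89792 tails (3.27%), which was 21.4% of the 13708 extensions that held U. The other 10769 held U only and are the set against which the mixed ones are placed. Because the letters of the extension chose the members, the shares below are descriptions.

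The urt1-1 xrn4-3 double mutant (urt1 xrn4 below) gave 26300 tails, of which 943 had a mixed extension. The urt1-1 mutant (Salk_087647C, urt1 below) gave 43391 tails with 873 mixed extensions, and the xrn4-3 mutant (SALK_014209, xrn4 below) gave 9797 tails with 696. Wild type (WT), labelled as ecotype Col0, gave 10304 tails with 427 mixed extensions. All were seedlings aged 2 weeks, raised on soil with 16 h of light and 8 h of darkness. Only the WT library has an ecotype in the labels, and no added treatment is given for any library. There was 1 library per genotype, so no difference between genotypes could be tested. Every interval is a 95% interval that covers counting error only, and reads carry no molecular identifiers. The table holds tails of 4 to 30 A, so all shares are shares of short tails. In the table, the 4 seedling shoot markers checked had 2880 tails, and the 3 dry seed and 3 flower markers had 0.

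URT1 is a terminal uridylyltransferase that adds U to the 3′ ends of mRNAs with short A tails, and HESO1 is a related enzyme known for adding U to unmethylated small RNAs. XRN4 is the cytoplasmic 5′ to 3′ exoribonuclease that degrades decapped mRNAs. In fission yeast and animals, uridylation of a short tail is known as a step that leads to decapping or to decay from the 3′ end, and poly(A) binding protein can cover the A tract.

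The 2939 extensions had 143 distinct sequences. Some of those that were among the 8 commonest of a library are shown to make the arrangement of U and A visible. They are printed 5′ to 3′ from the A tract outwards, with t for U in lower case and A in capitals.
Commonest in every library: tA
U followed by 2 A: tAA
U pair closed by A: ttA
A between U: tAt
A before a U pair: tAtt
A pair between U: tAAt
Alternating: tAtA
A pair before 3 U: tAAttt
U pair before 7 A: ttAAAAAAA

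The sequence tA made up 1607 reads (54.7%) from 670 loci, tAA made up 337 and ttA made up 167. Together these made up 71.8% of the mixed extensions. tAt was seen 103 times, tAtt 52 times, tAAt 46 times and tAtA 40 times. The set was thus a few short sequences and many rare ones: 21 sequences found in all 4 libraries made up 88.6% of the reads, while 88 were found in 1 library and 68 were read once. Some rare ones came from few loci. tAAttt was read 18 times from 5 loci, 14 of these reads in xrn4, and ttAAAAAAA 9 times from 4 loci, 7 of them in WT.

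The longest extensions are shown because they do not resemble the short ones and each came from 1 locus. The A tract before them was 12 nt in AT4G27440 and 6 nt in AT3G57450. The 7 reads of AT5G12010 had tracts of 4 or 7 nt and so gave only 2 distinct ends.
AT4G27440, WT, 27 nt, read 1 time: ttAAAAAAtAAtAAtAAtAtAAAAAAA
AT5G12010, xrn4, 21 nt, read 7 times: ttAAAttAtAtAAAttttttt
AT3G57450, WT, 16 nt, read 1 time: ttAttAtAAtttttAt

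The direction of writing is not stated in the sources used here and was settled from the letters. All 2939 extensions were written with T last (0 ended in A), while 2457 (83.6%) had A first. In 0 of them was the longest run of A as long as the A tract. The last written letter was therefore taken as the base next to the A tract and the sequences are printed turned round. In the same table the 7238 extensions of G or C held no A or T.

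Among all extensions that held U, A was present more often in both libraries from plants that carried urt1-1, an order that changed when only loci shared by the libraries were counted. The mixed share was 26.8% in urt1 xrn4 (25.3 to 28.3), 29.3% in urt1 (27.6 to 30.9), 17.7% in xrn4 (16.5 to 18.9) and 13.1% in WT (11.9 to 14.3). The urt1 library was 16.2 percentage points above WT (14.2 to 18.2) and urt1 xrn4 was 9.14 points above xrn4 (7.25 to 11.0). The xrn4 library was 4.60 points above WT (2.94 to 6.26), and urt1 xrn4 was 13.7 points above WT (11.9 to 15.6). Between urt1 xrn4 and urt1 the difference was -2.46 points (-4.66 to -0.27). Over loci with a U extension in all 4 libraries, the mixed share was 28.6% in urt1 xrn4, 24.7% in urt1, 25.5% in xrn4 and 16.6% in WT. Over these loci urt1 was 8.04 points above WT (3.998 to 11.9), xrn4 was 8.86 above WT (4.76 to 12.8), and urt1 xrn4 was 3.14 above xrn4 (-1.07 to 7.36) and 3.96 above urt1 (-0.19 to 8.13). With identical reads counted once, urt1 xrn4 was 4.42 points above xrn4 (1.71 to 7.10), and urt1 xrn4 minus urt1 was -6.18 (-8.91 to -3.44). Among extensions of 2 nt or more, urt1 was 38.6 points above WT, urt1 xrn4 was 19.2 above xrn4, and urt1 xrn4 minus urt1 was -15.8 (-18.9 to -12.6). Each library was read in both of 2 lanes, and within lanes the mixed share was 27.4% and 26.2% in urt1 xrn4, 28.2% and 30.3% in urt1, 18.4% and 17.0% in xrn4, and 12.4% and 13.6% in WT.

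**Figure D1:**
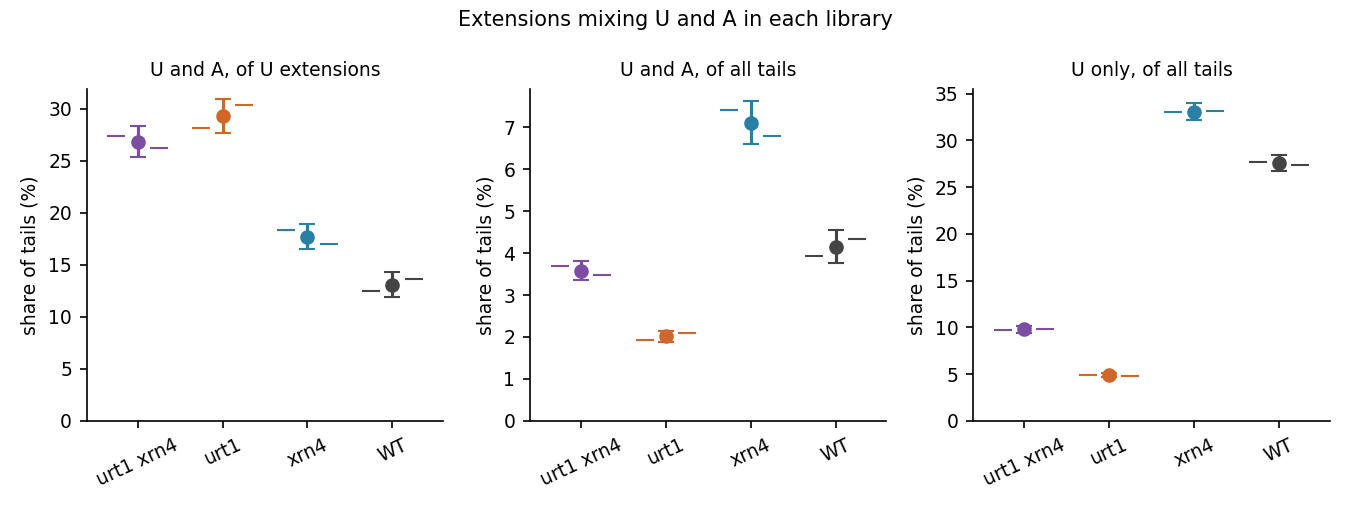
Share of tails (%, y axis) with U and A among extensions that hold U (left), with U and A among all tails (middle) and with U only among all tails (right), by library. Points are shares, vertical bars are exact Clopper-Pearson 95% intervals, and the short horizontal marks left and right of a point are lanes 1 and 2 alone; the urt1 xrn4 and urt1 libraries are high on the left and low on the right.

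Set against all tails, the order of the libraries was different. Mixed extensions were on 3.59% of tails in urt1 xrn4, 2.01% in urt1, 7.10% in xrn4 and 4.14% in WT. Tails with U only made up 9.79% in urt1 xrn4, 4.86% in urt1, 33.1% in xrn4 and 27.6% in WT. Mixed extensions per tail were thus 2.06-fold lower in urt1 than in WT, while extensions of U only were 5.67-fold lower. The same measures were 1.98-fold and 3.38-fold lower in urt1 xrn4 than in xrn4. In xrn4 they were 1.71-fold and 1.20-fold higher than in WT, and in urt1 xrn4 they were 1.78-fold and 2.01-fold higher than in urt1. In urt1, then, both kinds were less frequent per tail than in WT, the mixed kind by the smaller factor.

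Extensions in the 2 libraries with urt1-1 also held fewer U, and an extension of 1 nt cannot be mixed, so the mixed share was taken at equal numbers of U. With 1 U it was 36.9% in urt1 xrn4, 31.3% in urt1, 37.0% in xrn4 and 25.96% in WT. With 2 U it was 11.5% in urt1 xrn4, 19.4% in urt1, 10.9% in xrn4 and 4.98% in WT. With 3 U or more it was 22.0% in urt1 xrn4, 37.8% in urt1, 11.96% in xrn4 and 10.7% in WT. The urt1 share was above WT at each number of U, by 5.36 points with 1 U (2.02 to 8.61), 14.4 with 2 U (11.3 to 17.8) and 27.1 with 3 or more (20.9 to 33.5). Between urt1 xrn4 and xrn4 the difference was -0.11 points with 1 U (-3.89 to 3.61) and 0.58 with 2 U (-1.86 to 3.13), against 10.1 with 3 or more (6.55 to 13.8). Among extensions of exactly 2 nt, where U next to the tract leaves only U or A as the outer base, that base was A in 38.5% in urt1 xrn4, 49.9% in urt1, 16.5% in xrn4 and 14.3% in WT.

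**Figure D2:**
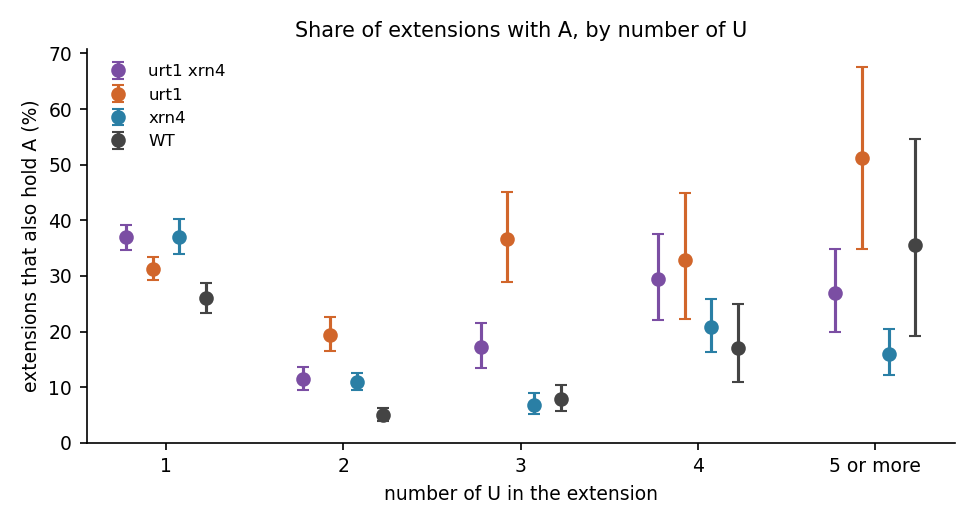
Share of extensions that also hold A (%, y axis) by the number of U in the extension (x axis). Points are libraries with exact Clopper-Pearson 95% intervals; with 3 U the urt1 share is the highest, and with 5 or more the intervals are wide because WT has 31 and urt1 39 such extensions.

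The order of U and A can be read base by base. Over every U in extensions that held U, the next base outwards was A for 15.8% in urt1 xrn4, 22.4% in urt1, 8.18% in xrn4 and 7.62% in WT. The next base was another U for 42.0% in urt1 xrn4, 26.6% in urt1, 56.4% in xrn4 and 46.7% in WT, and for the rest the extension ended there. In urt1, A followed U 2.93-fold more often than in WT, and the share of U followed by U differed by -20.1 points. The xrn4 library differed from WT by 0.55 points in the share of U followed by A (-0.31 to 1.39), and by 9.69 points in the share followed by U (8.11 to 11.3). After A, the extension ended for 63.5% in urt1 xrn4, 58.3% in urt1, 49.3% in xrn4 and 50.8% in WT. U resumed after A for 15.4% in urt1 xrn4, 15.7% in urt1, 24.6% in xrn4 and 19.5% in WT.

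As whole extensions, most had the form of a U block followed by an A block, as in tA, tAA and ttA above. With the direction taken here, an A next to the tract cannot be told from the tract. Forms that start with A could therefore not be seen, and only the order after the first U is an observation. This form made up 81.8% of mixed extensions in urt1 xrn4, 80.8% in urt1, 69.97% in xrn4 and 76.1% in WT. A between U blocks, as in tAt and tAtt, made up 12.1% in urt1 xrn4, 10.1% in urt1, 20.5% in xrn4 and 14.1% in WT. Forms with 4 or more blocks, as in tAtA, made up 6.15% in urt1 xrn4, 9.16% in urt1, 9.48% in xrn4 and 9.84% in WT. The 3′ base was A in 86.3% in urt1 xrn4, 87.6% in urt1, 75.6% in xrn4 and 82.4% in WT, so xrn4 had the most mixed extensions ending in U. With identical reads counted once, the shares ending in A were 84.7%, 86.2%, 74.0% and 79.5% in the same order of libraries.

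Extensions of 1 U and 1 A made up 59.8% of the mixed ones in urt1 xrn4, 60.1% in urt1, 40.1% in xrn4 and 55.97% in WT. A sole U was present in 72.4% in urt1 xrn4, 74.2% in urt1, 51.3% in xrn4 and 65.1% in WT, and a sole A in 74.9% in urt1 xrn4, 70.1% in urt1, 69.1% in xrn4 and 70.5% in WT. The libraries thus differed more in the number of U than in the number of A. A made up 46.2% of the bases of mixed extensions in urt1 xrn4, 50.6% in urt1, 41.9% in xrn4 and 49.6% in WT. The mean size was 2.94 ± 1.58 nt in urt1 xrn4, 2.97 ± 1.77 nt in urt1, 3.66 ± 2.69 nt in xrn4 and 3.27 ± 2.26 nt in WT (SD over reads). Extensions of U only averaged 1.91, 1.45, 2.52 and 2.0 nt in these libraries. Extensions of 6 nt or more made up 8.48% of the mixed ones in urt1 xrn4, 7.90% in urt1, 14.4% in xrn4 and 13.3% in WT.

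**Figure D3:**
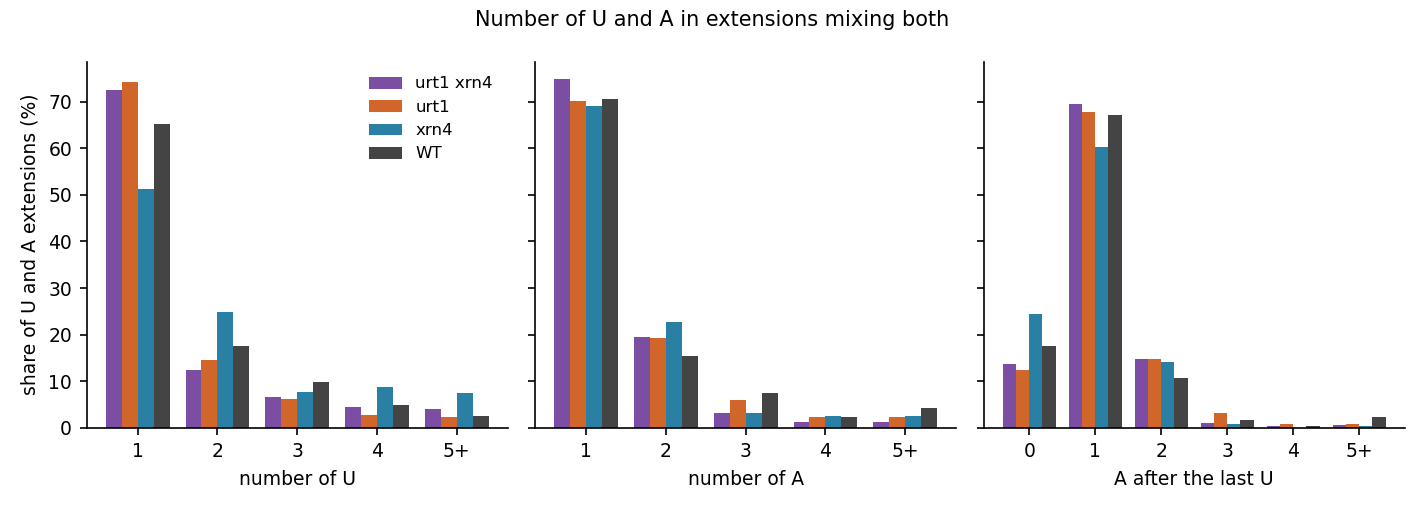
Share of mixed extensions (%, y axis) by number of U (left), number of A (middle) and number of A after the last U (right), with 1 bar per library. Bars for 1 U reach 72.4% in urt1 xrn4 and 74.2% in urt1, against 51.3% in xrn4 and 65.1% in WT, while bars for 1 A lie between 69.1% and 74.9%.

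The A tract before a mixed extension was short in every library. It averaged 11.2 ± 4.96 nt in urt1 xrn4, 11.3 ± 5.65 nt in urt1, 11.8 ± 4.98 nt in xrn4 and 12.2 ± 5.71 nt in WT (SD over reads), with medians of 11, 11, 12 and 12 nt. Tails of U only had mean tracts of 10.8 nt in urt1 xrn4, 11.6 nt in urt1, 11.5 nt in xrn4 and 12.9 nt in WT. Unmodified tails had longer ones, of 15.2, 15.4, 15.9 and 17.2 nt in the same order. Mixed minus U only was 0.43 nt in urt1 xrn4, -0.31 nt in urt1, 0.31 nt in xrn4 and -0.70 nt in WT. Within loci that held both kinds the mean difference was negative in each library: -0.98 nt over 157 loci in urt1 xrn4, -0.68 nt over 160 in urt1, -1.72 nt over 96 in xrn4 and -1.54 nt over 108 in WT. Means over reads and over loci therefore differed in sign in urt1 xrn4 and xrn4, and no order between mixed and U-only tails is read from them.

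Tract length differed with the form of the extension. Mixed extensions that ended in U followed tracts of 8.81 nt on average in urt1 xrn4, 10.1 nt in urt1, 10.7 nt in xrn4 and 9.45 nt in WT. Those that ended in A followed tracts of 11.6 nt in urt1 xrn4, 11.5 nt in urt1, 12.1 nt in xrn4 and 12.8 nt in WT. With the direction taken here, a mixed extension ending in U holds at least 2 U, so end base and number of U go together. Mixed tails with 2 U or more had mean tracts of 9.27 nt in urt1 xrn4 and 9.83 nt in urt1. In xrn4 and WT these means were 10.88 and 10.01 nt. Whether tracts differed by end base at equal numbers of U was not tested. Tracts of exactly 4 A, the shortest in the table, were the most frequent tract length of mixed tails in urt1 xrn4 (9.44%), urt1 (14.2%) and WT (10.1%). In xrn4 the most frequent length was 14 A (11.8%), and 4 A made up 7.18%. Of U-only tails, 4 A made up 12.9% in urt1 xrn4, 13.2% in urt1, 6.72% in xrn4 and 3.45% in WT. In WT a tract of 4 A was thus more frequent among mixed than among U-only tails.

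**Figure D4:**
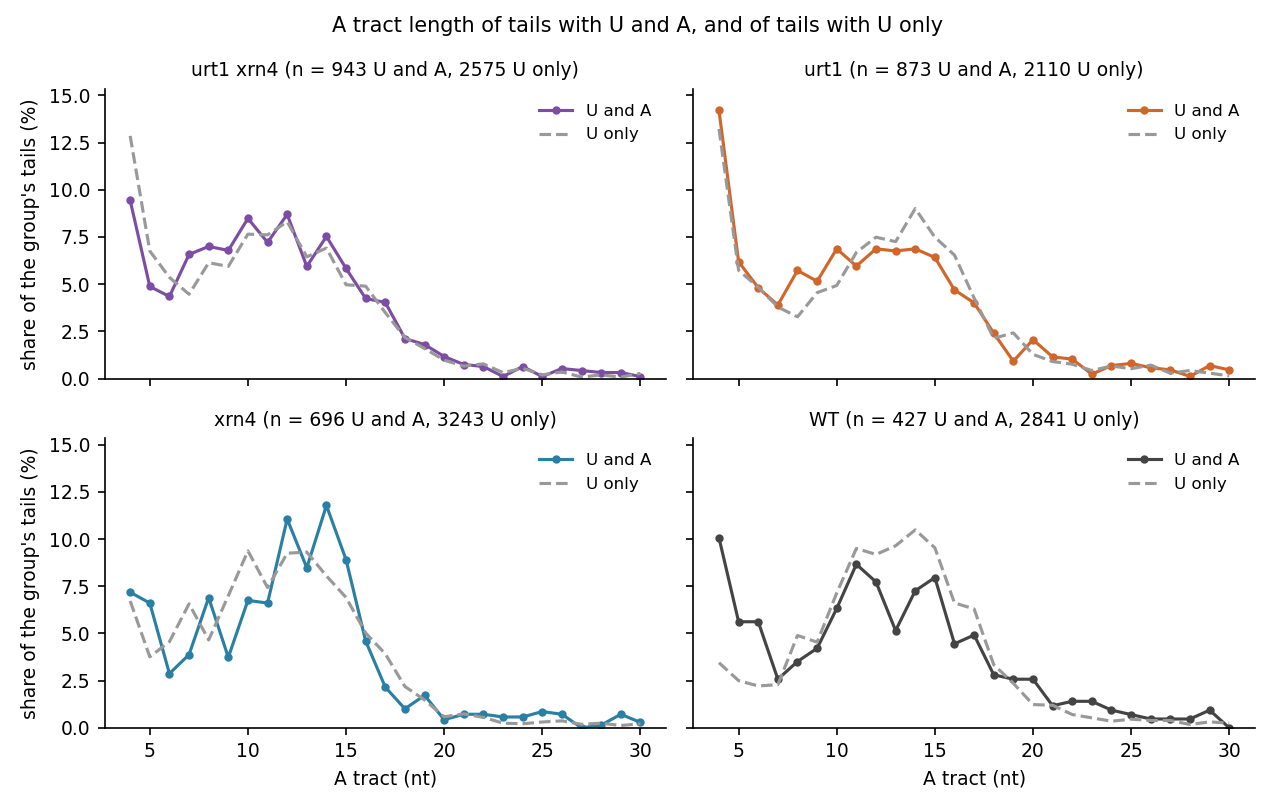
Length of the A tract (nt, x axis) of tails with U and A (solid line with points) and of tails with U only (dashed line), as a share of each group's tails (%, y axis), with 1 panel per library. At 4 A the solid line is above the dashed line in WT (10.1% against 3.45%) and below it in urt1 xrn4 (9.44% against 12.9%).

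A short A tract followed by U and A can also stand in the genome. The tract together with its extension was found within 1000 bases of or inside the read's own locus, in the TAIR10.1 reference, for 13.1% of mixed tails in urt1 xrn4, 16.5% in urt1, 10.5% in xrn4 and 10.1% in WT. Over all libraries it was found for 182 of the 306 mixed tails with 4 A (59.5%), and for 15 of the 1870 with 10 A or more (0.80%). U-only tails with 4 A were found for 84.2%. Shorter strings match more easily, so these shares do not count encoded ends. U-only tails of any tract length were found for 23.7% in urt1 xrn4, 25.6% in urt1, 10.4% in xrn4 and 7.50% in WT. Without reads found in the reference, the mixed share of U extensions was 29.4% in urt1 xrn4, 31.7% in urt1, 17.6% in xrn4 and 12.7% in WT. Of 83 distinct mixed ends of 8 nt or more, the extension alone was found in its locus for 24 as printed here and for 14 as written in the table, and the tract with the extension for 2.

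Mixed extensions were spread over 1180 loci, of which 970 had them in 1 library and 20 in all 4. Of loci with mixed reads in a library, 224 of 404 in urt1 xrn4 and 362 of 512 in urt1 had 1 such read. The same held for 201 of 299 in xrn4 and 190 of 256 in WT. Loci with any U extension numbered 1305 in urt1 xrn4, 1193 in urt1, 955 in xrn4 and 974 in WT. The 970 loci are therefore not read as specific to a library. The leading locus held 1.803% of the mixed reads in urt1 xrn4, 1.95% in urt1, 3.16% in xrn4 and 4.45% in WT. Repeats were common: the reads came down to 603 distinct ends in urt1 xrn4, 715 in urt1, 412 in xrn4 and 336 in WT, where an end is a locus, a tract length and an extension.

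Genes of photosynthesis and translation were among the loci with the most mixed reads. This ranking was by number of reads and was not corrected for depth. Over the 4 libraries, the 12 leading loci had from 286 tails (AT4G05070) to 973 (FBA2). AT1G07940, an elongation factor Tu family protein of translation, had 7 mixed among 25 U extensions in urt1 xrn4, 9 among 38 in urt1, 12 among 33 in xrn4 and 19 among 24 in WT. Its share was highest in WT, unlike the libraries as a whole. DRT112, a plastocyanin that carries electrons to photosystem I, had 17 among 25 in urt1 xrn4, 7 among 36 in urt1, 10 among 12 in xrn4 and 2 among 9 in WT. Its 17 reads in urt1 xrn4 were 6 distinct ends. FBA2, a plastid aldolase of the Calvin cycle, had 4 among 9 in urt1 xrn4, 17 among 37 in urt1, 9 among 31 in xrn4 and 5 among 18 in WT. RCA, which encodes Rubisco activase, had 2 among 22 in urt1 xrn4, 11 among 87 in urt1, 9 among 54 in xrn4 and 8 among 52 in WT. Its share was below that of all U extensions in urt1 xrn4 (9.09% against 26.8%) and urt1 (12.6% against 29.3%). In xrn4 it was 16.7% against 17.7%, and in WT it was the higher one, 15.4% against 13.1%.

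The chlorophyll-binding antenna genes CAB1, CAB2 and CAB3 are near-identical, so reads may be split between them and their separate values are uncertain. CAB3 had 10 mixed among 22 U extensions in urt1 xrn4, 7 among 27 in urt1, 22 among 28 in xrn4 and 3 among 7 in WT. CAB1 had 3 among 12 in urt1 xrn4, 15 among 39 in urt1, 16 among 29 in xrn4 and 5 among 12 in WT. CAB2 had 15 among 24 in urt1 xrn4, 6 among 12 in urt1, 12 among 31 in xrn4 and 1 among 8 in WT. The 22 reads of CAB3 in xrn4 were 5 distinct ends. LHCB2.2, another antenna protein of photosystem II, had 10 among 32 in urt1 xrn4, 4 among 25 in urt1, 13 among 46 in xrn4 and 5 among 46 in WT.

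The remaining named loci had fewer mixed reads. PSAK, a photosystem I subunit, had 14 mixed among 21 U extensions in urt1 xrn4, 3 among 14 in urt1, 0 among 0 in xrn4 and 1 among 7 in WT. TIP2, a water channel of the vacuolar membrane, had 13 among 43 in urt1 xrn4, 4 among 26 in urt1, 0 among 6 in xrn4 and 0 among 15 in WT. The ribosomal protein gene emb2171 had 9 among 16 in urt1 xrn4, 2 among 11 in urt1, 7 among 20 in xrn4 and 2 among 5 in WT. AT4G05070, annotated as a wound-responsive family protein, had 7 among 28 in urt1 xrn4, 4 among 11 in urt1, 2 among 8 in xrn4 and 4 among 4 in WT. LHCB4.2, a minor antenna protein, had 3 among 11 in urt1 xrn4, 10 among 18 in urt1, 0 among 11 in xrn4 and 0 among 8 in WT. LHCA1, an antenna protein of photosystem I, had 1 among 16 in urt1 xrn4, 4 among 33 in urt1, 1 among 13 in xrn4 and 6 among 12 in WT, where the 6 reads were 2 distinct ends. All 8 mixed reads of WAT1, a vacuolar membrane protein involved in secondary walls, were tA in WT and came from 2 distinct ends, and so did the 6 of GTE7.

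**Figure D5:**
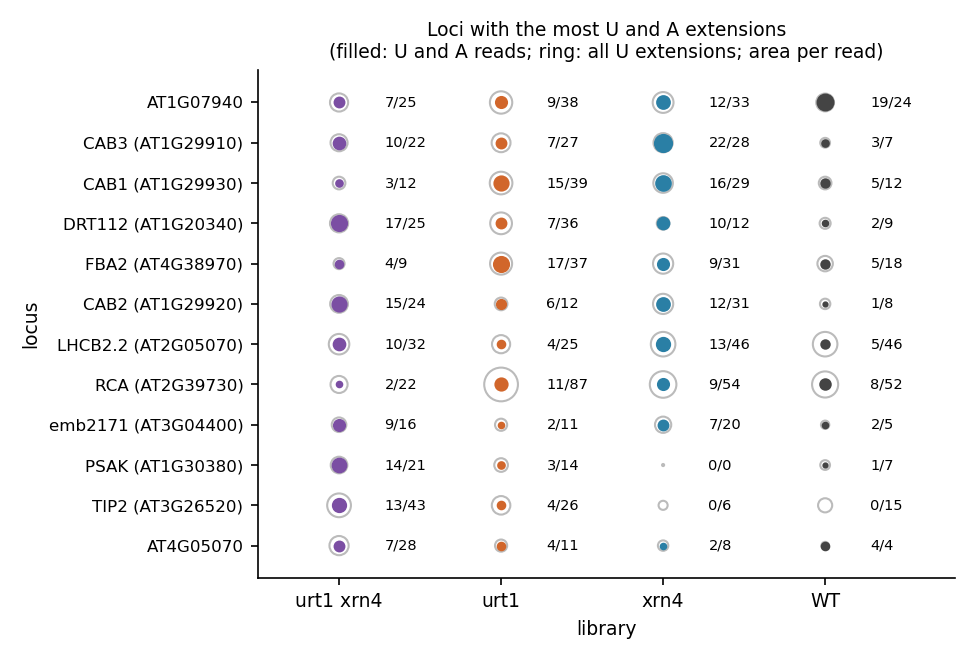
The 12 loci with the most mixed extensions (y axis) in each library (x axis). Filled circles have an area proportional to the number of mixed reads and rings to all extensions that hold U, and the text beside them gives mixed over all; in WT, AT1G07940 has 19 of 24 and LHCB2.2 has 5 of 46.

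Locus by locus, the comparison was limited by depth. Of loci with at least 10 U extensions in both libraries, the mixed share was higher in urt1 than in WT in 10 of 14 (71.4%) and higher in xrn4 than in WT in 8 of 14 (57.1%). It was higher in urt1 xrn4 than in WT in 3 of 10 (30%), higher in urt1 xrn4 than in xrn4 in 5 of 16 (31.2%), and higher in urt1 xrn4 than in urt1 in 14 of 23 (60.9%). These percentages are themselves the background, since every such locus was counted. In the comparisons of urt1 xrn4 with WT, with xrn4 and with urt1, a minority of these loci went the way of the whole libraries. Against urt1, where the libraries differed by -2.46 points, 9 of 23 loci were lower in urt1 xrn4. With at least 5 U extensions, 27 of 41 loci were higher and 12 lower in urt1 than in WT, and 21 of 49 were higher and 10 lower in xrn4 than in WT. In urt1 xrn4, 28 of 48 were higher and 14 lower than in WT, 25 of 50 higher and 17 lower than in xrn4, and 26 of 50 higher and 21 lower than in urt1. The remaining loci had equal shares, 18 of them for xrn4 and WT. The comparisons share libraries.

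The light-harvesting antenna list had tails for 17 of 17 members, and all 17 had a mixed extension in at least 1 library. Over all loci, 1180 of 8346 had one. The 17 members were deeply read, with 6117 tails and 908 U extensions, so this count is not read as a trait of the list. Its mixed share of U extensions was 30.9% in urt1 xrn4 (73 of 236), 23.2% in urt1 (65 of 280), 37.9% in xrn4 (91 of 240) and 15.1% in WT (23 of 152). The Calvin cycle list had tails for 16 of 16 members, 12 of them with a mixed extension, at 4342 tails and 525 U extensions. Its share was 27.9% in urt1 xrn4 (24 of 86), 28.6% in urt1 (57 of 199), 27.4% in xrn4 (34 of 124) and 19.0% in WT (22 of 116). Over all loci the shares were 26.8%, 29.3%, 17.7% and 13.1% in that order of libraries. In xrn4 both lists were above all loci, with intervals of 31.8 to 44.4 (antenna) and 19.8 to 36.2 (Calvin cycle). These intervals count repeated reads separately. The 91 antenna reads were 42 distinct ends, and the 34 Calvin cycle reads were 22. CAB1, CAB2 and CAB3, the near-identical genes, gave 16, 12 and 22 of the 91. In urt1 the antenna list was below all loci (18.4 to 28.6). The intervals of the other list shares included the share over all loci. No test was made. Of 15 uridylation and decay factors, 8 had a tail, with 51 tails in all. PAB4, a poly(A) binding protein, had 1 mixed among 1 U extension in urt1 and 1 among 4 in WT. DCP5 and DCP2 of decapping, PAB8, PAB2, the deadenylases CAF1a and CAF1b, and AT1G77680 had no extension that held U, at 1 to 8 tails each.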

How the data were processed

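TAIL-seq reads of 4 Arabidopsis seedling libraries, 1 per genotype, were used as the authors deposited them: a table with 1 line per read giving, per the file headers, genotype, A tract size, added bases and their number, category and locus. Its sizes are other units than counts or normalised values, namely nucleotides, as deposited by the authors. Bowtie2, TopHat2 2.0.9, bedtools 2.17.5 and CASAVA 1.8.2 and the build TAIR10 are named in the submitters' processing notes. The sources used here do not say how reads were filtered or why tracts end at 30 A. The genotype value UX was read as the double mutant, since every other value matches a sample title.

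Mixed extensions, their order and size, A tracts and loci were counted with pandas 2.3.3, numpy 2.4.6, scipy 1.17.1 and pysam 0.24.0 in Python 3.11.15 and plotted with matplotlib 3.10.9. Shares have exact Clopper-Pearson 95% intervals and differences Newcombe's 95% intervals. The depth was 26300, 43391, 9797 and 10304 tails in urt1 xrn4, urt1, xrn4 and WT, where a count of 0 allows a share of 0.0114%, 0.00691%, 0.0306% and 0.0291% of tails. No genotype was tested, since each has 1 library. Names came from NCBI's TAIR10.1 annotation (8310 of 8346 loci matched); coordinates are not printed because the build names differ. The sorting of extensions was checked on strings with known answers. Interval coverage and the count of loci by direction were checked on simulated reads drawn independently. The other steps were not simulated.

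Loci named were the 12 with most mixed extensions, the 5 leading in each library, and decay factors with a tail; sequences were chosen from the 8 commonest per library and the 3 longest. Members and lists were chosen with earlier results of these data known. Alternatives were repeated reads, tract window, leading locus, shared loci, size, denominator, weights and locus minimum; matches to the reference, lanes and standardisation to WT numbers of U were chosen after seeing the data.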

Additional observations from a re-analysis of the deposited data

Results flagged for a closer look

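In 4 measures the difference between libraries had opposite signs in the 2 genetic backgrounds. Each rests on 1 library per genotype and none of these differences of differences was tested.

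The mixed share of U extensions was 4.60 points higher in xrn4 than in WT, but in urt1 xrn4 minus urt1 it was -2.46 points. Over loci with U extensions in all 4 libraries these differences were 8.86 and 3.96 points, of the same sign. The mean size of mixed extensions differed by 0.381 nt for xrn4 minus WT and by -0.0352 nt for urt1 xrn4 minus urt1. SDs over reads were 1.58 to 2.69 nt. With identical reads counted once, the means lay closer in xrn4 and WT, at 3.58 and 3.45 nt, and were 3.06 nt in urt1 xrn4 and 3.07 nt in urt1. The form of a U block followed by an A block differed by -6.14 points for xrn4 minus WT (-11.3 to -0.76). For urt1 xrn4 minus urt1 it differed by 1.00 points (-2.58 to 4.61), an interval that includes 0. The share of mixed extensions with 1 A differed by -1.38 points for xrn4 minus WT and by 4.76 points for urt1 xrn4 minus urt1. That share also differed by -0.389 points for urt1 minus WT and by 5.76 points for urt1 xrn4 minus xrn4.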

How the results depend on the processing

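Of 441 values recomputed under an alternative, 329 were counted as the same, 100 moved, 5 kept direction with an interval that then included 0, and 7 reversed. A share was counted as moved outside its 95% interval, a mean beyond 1 SD over reads. That limit is wide for means. The mean tract of mixed tails in WT went from 12.2 to 15.2 nt with tails of 10 A or more and counted as the same. WT shares standardised to WT tract lengths or WT numbers of U were the same by construction. The cause of the changes was not tested. No paired analysis was possible because each genotype has 1 library, and for the same reason no replicate could be left out. The urt1 xrn4 minus urt1 difference reversed to 3.96 points over loci with U extensions in all 4 libraries and was -0.138 with tails of 10 A or more, -2.13 with extensions of at most 5 nt, -2.28 without reads found in the reference and -0.762 in lane 1; urt1 xrn4 minus xrn4 was 3.14 over the shared loci. The tract difference between mixed and U-only tails reversed with tails of 10 A or more, to 0.0901 nt in urt1 and 0.716 nt in WT; with identical reads counted once, to -0.0234 nt in urt1 xrn4 and -0.490 nt in xrn4; without reads found in the reference, to -0.315 nt in urt1 xrn4; and over shared loci, to -0.0623 nt in xrn4. The mixed share of U extensions moved as follows. Identical reads counted once gave 33.6% in urt1, 23.0% in xrn4 and 17.9% in WT. Shared loci gave 28.6% in urt1 xrn4, 24.7% in urt1, 25.5% in xrn4 and 16.6% in WT. Extensions of 2 nt or more gave 40.1% in urt1 xrn4, 55.9% in urt1, 20.9% in xrn4 and 17.3% in WT. Equal weight per locus gave 30.4% in urt1 xrn4, 27.3% in urt1, 14.3% in xrn4 and 9.89% in WT. WT numbers of U gave 21.6% in urt1 xrn4, 27.0% in urt1 and 19.2% in xrn4. Without reads found in the reference it was 29.4% in urt1 xrn4 and 31.7% in urt1; with tails of 10 A or more, 11.4% in WT; with extensions of at most 5 nt, 16.1% in xrn4 and 11.6% in WT. The mixed share of all tails moved with identical reads counted once to 4.58% in urt1 xrn4, 3.495% in urt1 and 5.08% in WT. With tails of 10 A or more it was 2.90% in urt1 xrn4, 1.504% in urt1 and 3.45% in WT. With extensions of at most 5 nt it was 3.30% in urt1 xrn4, 1.86% in urt1, 6.23% in xrn4 and 3.62% in WT. Without reads found in the reference it was 3.20% in urt1 xrn4 and 1.71% in urt1, and over shared loci 9.24% in xrn4. The form U block then A block moved with tails of 10 A or more to 89.4% in urt1 xrn4, 84.7% in urt1, 74.1% in xrn4 and 82.9% in WT. With extensions of at most 5 nt it was 86.9% in urt1 xrn4, 85.9% in urt1, 80.7% in xrn4 and 84.3% in WT. Shared loci gave 84.9% in urt1 xrn4 and 85.3% in urt1; identical reads counted once gave 79.1% in urt1 xrn4 and 71.4% in WT. The form A between U blocks moved to 7.30% in urt1 xrn4 with tails of 10 A or more, to 7.79% in urt1 and 28.7% in xrn4 over shared loci, to 16.6% in xrn4 with at most 5 nt, and to 7.79% in urt1 in lane 1. The form with 4 or more blocks moved to 3.30% in urt1 xrn4, 4.77% in urt1 and 5.82% in WT with tails of 10 A or more. It was 3.01% in urt1 xrn4, 4.23% in urt1, 2.68% in xrn4 and 3.51% in WT with at most 5 nt, and 3.88% in urt1 xrn4, 6.93% in urt1 and 3.91% in xrn4 over shared loci. Counts of loci with the higher share changed with the minimum, as did the number of loci compared. At 5 U extensions, urt1 xrn4 was higher at 28 of 48 against WT, 25 of 50 against xrn4 and 26 of 50 against urt1. Against WT, urt1 was then higher at 27 of 41 and xrn4 at 21 of 49. At 20, urt1 xrn4 was higher at 2 of 6 against xrn4 and 7 of 10 against urt1. Against WT, urt1 was then higher at 2 of 4 and xrn4 at 2 of 5. With identical reads counted once, urt1 xrn4 was higher at 1 of 3 against WT and 3 of 8 against xrn4. It was higher at 8 of 13 against urt1. Against WT, urt1 was then higher at 3 of 5 and xrn4 at 1 of 4.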
